A study of Mus musculus with 2 samples.

Results

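R-loop peaks were examined in the genes of the cytoplasmic ribosome, taken as the protein-coding genes of the GENCODE M1 annotation (mouse build NCBI37/mm9) whose symbol starts with Rpl or Rps and a digit, or is Rpsa, Rplp0, Rplp1 or Rplp2, without the Rps6k kinases. This rule found 140 of 22367 protein-coding genes. It does not use the peaks. Of the 140 genes, 45 encode proteins of the large and 31 proteins of the small ribosomal subunit, together called the 76 subunit genes here. The remainder comprised 8 paralogs, 55 single-exon genes of 0.270 to 1.03 kb whose symbol ends in "-ps" and a number or in "-ps" alone, and Rps19bp1, which the symbol rule takes in although it encodes a binding partner of Rps19 and no ribosomal protein. Rpl41 was not analysed here.

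The ribosome translates mRNA, and its 2 subunits are built from ribosomal RNA and one copy of most ribosomal proteins. Genes for these proteins are short, have several introns, some of which host small nucleolar RNAs (snoRNAs), and are among the most highly transcribed genes of growing cells. R-loops are 3-stranded structures in which nascent RNA pairs with the template DNA strand and the other strand is left single, and they are known to form over transcribed, G-rich sequence. Retrotransposed copies of ribosomal protein mRNAs are numerous in mammalian genomes.

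The peaks come from DRIP-seq, in which DNA that carries RNA:DNA hybrids is immunoprecipitated and sequenced, of primary neural stem/progenitor cells (NSPCs), cultured from the frontal brains of C57BL/6 mice at postnatal day 7. According to the study's methods, cells were kept under mild replication stress with aphidicolin, an inhibitor of replicative DNA polymerases, which the sample labels do not name. DNA was cut with 5 restriction enzymes and hybrids were recovered with the S9.6 antibody, while an input sample without antibody was sequenced beside it and was not analysed here. The data are 1 list of 22132 peaks with a chromosome, start and end each and no signal or count, so that the depth is unknown, no replicate error can be given, and every value below is a description without a test. As a check of the labelled cell type, 7 of 10 marker genes of neural stem and progenitor cells contained a peak, among them Nes, Sox2, Sox9 and Vim, and Pax6, Fabp7 and Hes5 contained none. Peaks were found in 2 of 5 markers of microglia and 1 of 4 of endothelium, and in 39.6% of all protein-coding genes, so that the markers of other cells stood near or below that share. Presence of a peak is not a level of expression.

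Most genes of both subunits contained an R-loop peak, counted from an overlap of 1 bp. Peaks were found in 58 of the 76 subunit genes (76.3%), with 35 of 45 in the large (77.8%) and 23 of 31 in the small subunit (74.2%). Over all protein-coding genes the share was 39.6%, and over the 8861 protein-coding genes of up to 10 kb it was 22.2%. The subunit genes were not limited in length, and Rpl13a, Rps15a, Rpl11 and Rpl24, of 10.9 to 42.6 kb, each contained a peak. None of the 55 genes with a -ps symbol contained a peak, and of all 1775 single-exon protein-coding genes of up to 1.03 kb, 2.42% contained a peak. With the paralogs and Rps19bp1 included, 62 of the 140 genes (44.3%) contained a peak.

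Peaks lay over the exact annotated gene start more often than over the exact annotated gene end. The annotated start was inside a peak in 45 subunit genes (59.2%), compared to 14.9% of all protein-coding genes. The annotated end was inside a peak in 31 subunit genes (40.8%), compared to 10.9% of all protein-coding genes. The difference was small once nearby peaks counted: 49 subunit genes had a peak within 500 bp of the start and 45 within 500 bp of the end. Without peaks that also overlapped another protein-coding gene, the end was inside a peak in 15 subunit genes and 30.8% of their bases were covered. The full list of peaks covered 46.1% of the bases of the subunit genes, 14.8% of those of protein-coding genes up to 10 kb, and 3.81% of those of all protein-coding genes. Genes of other large complexes were set beside them, cut at 10 kb while the subunit genes were not. Peaks were found in 27 of 52 genes of up to 10 kb for mitochondrial ribosomal proteins (51.9%), with the start inside a peak in 23.1% and the end in 30.8%. They were found in 12 of 19 such genes for proteasome subunits (63.2%), with the start inside a peak in 26.3% and the end in 31.6%.

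**Figure D1:**
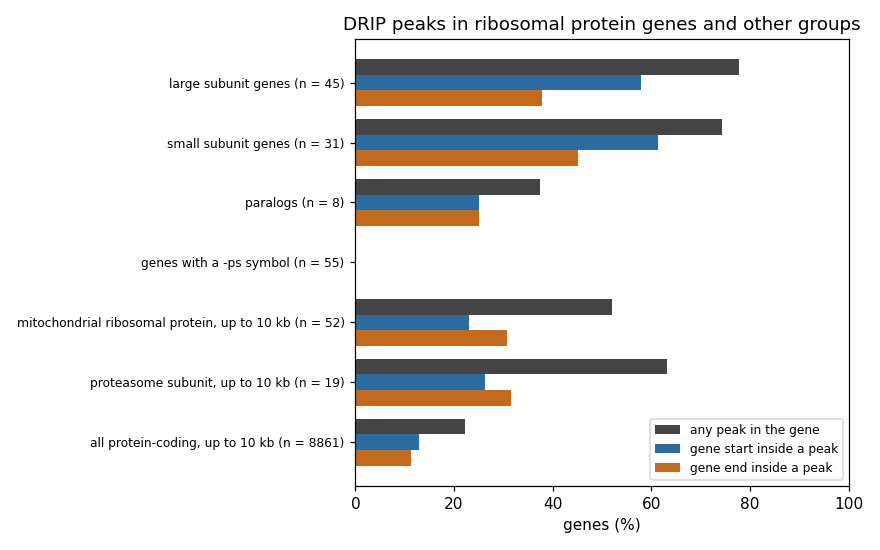
Share of genes (%, horizontal axis) that contain a DRIP peak (dark), have their start inside a peak (blue) or their end inside a peak (orange), for 7 groups of genes named with their number n. Large and small subunit genes stand at 77.8% and 74.2% with any peak, the genes with a -ps symbol at 0, and all protein-coding genes of up to 10 kb at 22.2%. The subunit genes are not limited to 10 kb.

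The 68 peaks over the subunit genes had a median width of 3.61 kb, from 0.143 kb in Rpl28 to 15.3 kb over Rpl23, whereas the median was 1.32 kb over the whole list and 2.87 kb over peaks in protein-coding genes up to 10 kb. The 31 peaks over mitochondrial ribosomal protein genes of up to 10 kb had a median of 3.63 kb, close to that of the subunit genes. Of the 68 peaks, 62 were at least 1 kb, 22 at least 5 kb and 3 under 300 bp wide. A protein-coding gene that is no ribosomal protein gene lay under 23 of them as well, and 0 peaks joined 2 ribosomal protein genes. After the peak over Rpl23, the widest of the 68 were 8.85 kb over Rpl10a, 8.50 kb over Rpl11 and 8.33 kb over Rps10, and outside the subunit genes the peak over Rps19bp1 measured 14.4 kb.

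Among the 45 peaks that held a gene start, the reach upstream of the start had a median of 529 bp and ranged from 17 bp in Rplp1 to 4488 bp in Rpl13a. The reach downstream had a median of 3178 bp, and 36 of the 45 peaks reached further downstream than upstream. At 2 kb upstream of the start of the lowest-numbered protein-coding transcript, called the lead transcript, 6.58% of subunit genes were inside a peak. This share was 59.2% at the start itself, 53.9% at 2 kb and 34.2% at 5 kb downstream. The corresponding shares of all protein-coding genes were 5.47% upstream and 8.86% downstream, each at 2 kb. Along the lead transcripts divided into 10 equal parts, 57.9% of the subunit genes were counted as inside a peak in the first part, 59.2% in the fourth and 43.4% in the last. These counts leave out some peaks that only touch a part, since the start alone was inside a peak in 59.2%.

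**Figure D2:**
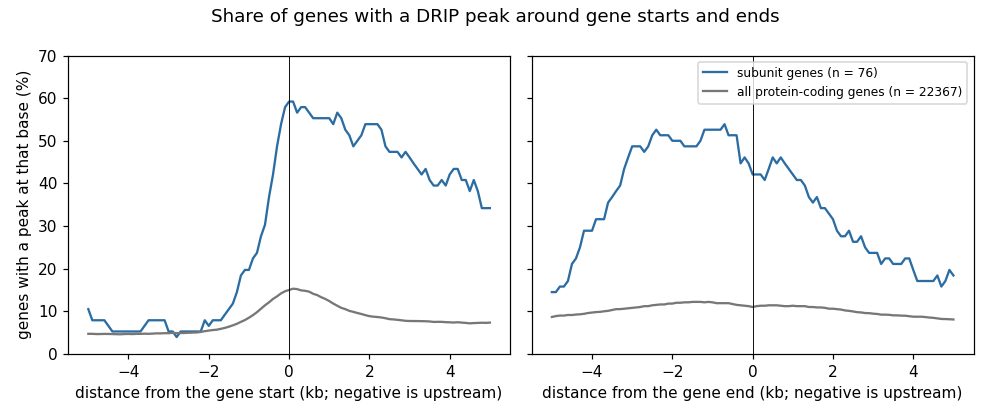
Share of genes with a DRIP peak at each distance (vertical axis, %) from the start (left) and the end (right) of the lead transcript, in steps of 100 bp over 5 kb to each side. The line of the 76 subunit genes rises from 6.58% at 2 kb upstream to 59.2% at the start and stays above the line of all 22367 protein-coding genes throughout the gene bodies, and 31.6% of subunit genes were still inside a peak 2 kb past the end.

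In 18 subunit genes, a single peak contained the whole annotated gene. They included, in the large subunit, Rpl8, Rpl10a, Rpl12, Rpl23, Rpl23a, Rpl27a, Rpl34, Rpl37 and Rpl38, and, in the small subunit, Rps6, Rps9, Rps10, Rps14, Rps19, Rps27, Rps28 and Rps29. Rpl23 (chr11:97638841-97643751, minus strand) lay in the peak at chr11:97629643-97644963, which started 1212 bp upstream of the gene start, ran 9198 bp past its end and also covered part of 1700001P01Rik. Rps28 (chr17:33955972-33961507, minus strand) lay in a peak of 8.12 kb that reached 293 bp upstream of its start and also overlapped Kank3 and Ndufa7. Rpl34 (chr3:130429749-130433316, minus strand) was matched most closely by its peak of 3.83 kb, which extended 257 bp before the start and 7 bp past the end.

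The other genes of this kind differed in how far the peak left the gene. Rps6, whose product is phosphorylated when growth signalling is active, had a peak of 7.24 kb that ran 3934 bp past the end. Rpl37 had a peak of 6.91 kb that ran 4264 bp past the end, and that of Rpl23a, of 8.02 kb, ran 4984 bp past it. Extensions past the end were shorter in Rps9 at 270 bp, in Rpl8 at 206 bp and in Rpl12 at 521 bp. In between, the peak ended 958 bp past Rps29, 1208 bp past Rps19, 1639 bp past Rpl38, 1878 bp past Rps10, 1939 bp past Rps14, 2018 bp past Rpl27a, 2294 bp past Rps28, 2489 bp past Rps27 and 2710 bp past Rpl10a. Over the 18 genes, the reach past the end thus spread from 7 to 9198 bp. Other protein-coding genes lay under the peaks of Rpl10a (Fance and Tead3), Rpl12 (Lrsam1), Rpl23a (Nek8 and Tlcd1), Rpl27a (St5), Rpl37 (Gm10250) and Rps27 (Nup210l and Rab13).

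By gene record, the most frequent arrangement was a peak over the start that stopped before the annotated end, found in 23 subunit genes. By lead transcript, 21 genes had this arrangement and 20 lay wholly in 1 peak. Among the 23 were Rpl5, Rpl6, Rpl7, Rpl11, Rpl13, Rpl13a, Rpl15, Rpl17, Rpl19, Rpl21, Rpl26, Rpl30, Rpl35a, Rplp1, Rps13, Rps15a, Rps16, Rps20, Rps21, Rps23, Rps25 and Rpsa. The covered share of the gene ranged from 12.8% in Rps25 and 14.2% in Rps21 to 96.6% in Rpl13. In Rpl13, Rpl19, Rpl21 and Rpsa, the peak ended 99, 400, 325 and 389 bp before the gene end, so that nearly the whole gene was covered. In Rps21 (chr2:179992082-179993150), by contrast, the peak reached 1249 bp upstream and 151 bp into the gene.

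**Figure D3:**
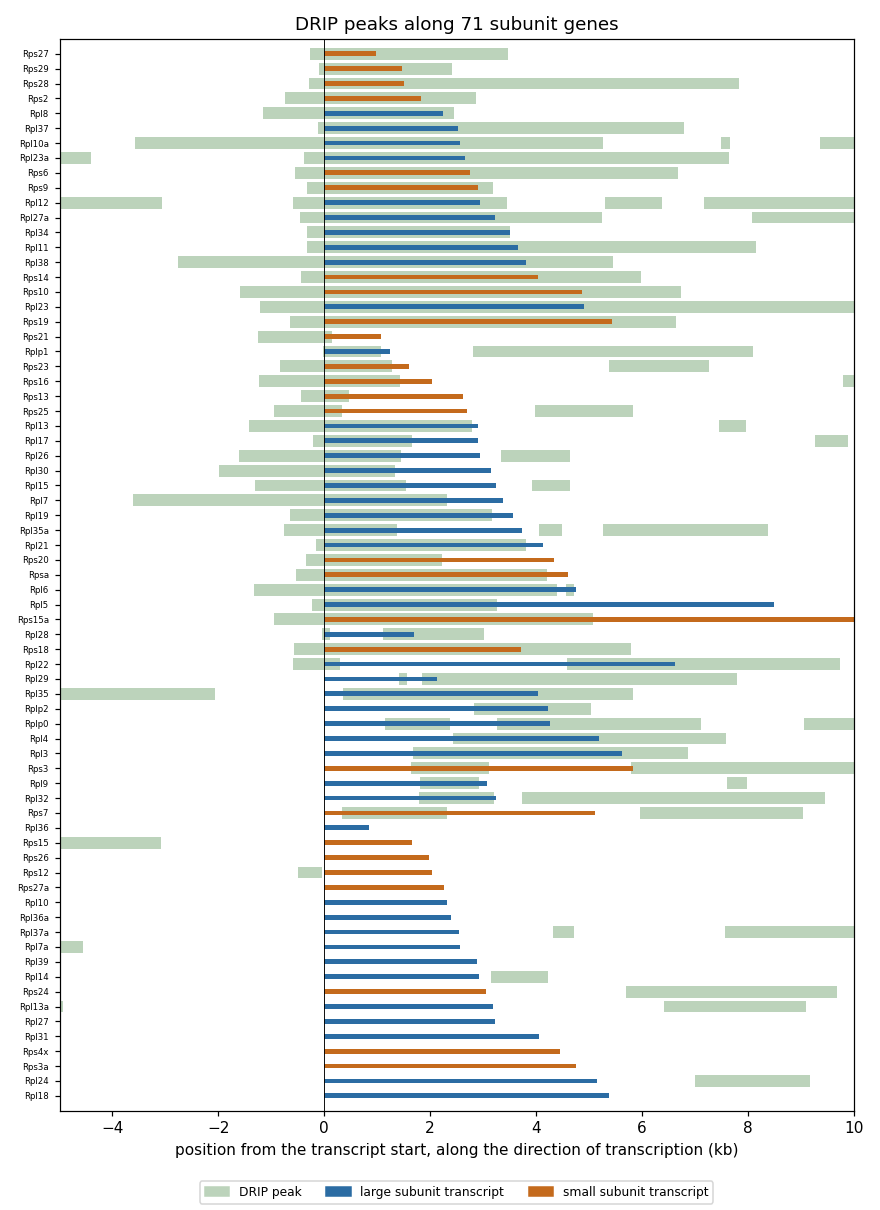
DRIP peaks (green) and lead transcripts of 71 subunit genes (blue, large subunit; orange, small subunit), in the direction of transcription, with the position from the transcript start in kb on the horizontal axis, cut at 5 kb upstream and 10 kb downstream. From top to bottom the genes are those with the whole transcript in a peak, with a peak over the start, with peaks over both ends, over the end, inside, and without a peak in the lead transcript, the last with 19 genes.

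A peak over the end and none over the annotated start was seen in 9 subunit genes, among them Rpl3, Rpl4, Rpl29, Rpl35, Rplp0, Rplp2, Rps2 and Rps3. In Rpl35 (chr2:38857100-38861144, minus strand), the peak began 359 bp downstream of the start and covered 91.1% of the gene. In Rpl3 and Rpl4 it began 1670 and 2437 bp downstream and covered 70.3% and 52.9%. In Rpl29 and Rps3, 19.5% and 25.9% of the gene were covered. Rps2, of the entry side of the mRNA channel, belongs here only by its gene record (67.0% covered), since a longer annotated transcript starts upstream of the peak, while its lead transcript of 1.82 kb lay wholly in the peak. Peaks that lay inside the gene and held neither the exact annotated start nor the exact annotated end were found in Rpl9, Rpl24, Rpl32 and Rps7, in some of them close to an end. The peak of Rpl9 covered 36.0% of the gene and ended 155 bp before its end, that of Rpl32 covered 43.8% and ended 40 bp before the end, and that of Rps7 began 330 bp after the start and covered 39.0%.

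Peaks numbered 2 in 10 subunit genes. In Rps18 (chr17:34088944-34092946, minus strand), 1 base separated the peaks of 3.70 and 2.66 kb, and every other base of the gene was covered. In Rpl22 (chr4:151699851-151708180), a peak of 0.902 kb lay over the start and another of 5.16 kb over the end. Rpl28 had its narrow start peak of 0.143 kb and an end peak of 1.91 kb. Both ends were inside peaks, without 1 peak holding the whole gene, in 4 genes, of which these are examples. Rpl6 was covered over 95.6% of its length by peaks of 5.74 and 0.151 kb. Rpl26 had peaks of 3.07 and 1.29 kb, Rpl29 of 0.148 and 5.95 kb, and Rps3 of 1.47 and 4.69 kb, the last of which overlapped the gene end by 45 bp. Rplp0 and Rpl24 are described with their groups.

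The 4 genes of the ribosomal stalk, which recruits the translation factors with GTPase activity, all contained a peak. Rplp0 (chr5:116009476-116013736), the base of the stalk, had peaks of 1.24 and 3.85 kb, the second over its end, and 52.3% of its bases were covered. Rplp1 (chr9:61761091-61762345, minus strand) had a peak of 1.08 kb from 17 bp upstream of the start over 85.0% of the gene. Rplp2 (chr7:148633269-148637484) had a peak of 2.22 kb over its end that covered 33.0%, and Rpl12 was covered entirely. Both genes of the 5S particle, whose proteins also bind and inhibit Mdm2 when ribosome assembly is disturbed, had a peak over the start. Rpl5 (chr5:108329521-108338024) was covered over 38.4% by a peak of 3.50 kb. Rpl11 (chr4:135584180-135609343, minus strand) was covered over 32.6% of its 25.2 kb record by a peak of 8.50 kb, and its lead transcript of 3.66 kb lay wholly inside that peak.

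In the other functional lists, peaks were found in 6 of 8 genes of the polypeptide exit tunnel, with Rpl31 and Rpl39 without one, and in 6 of 7 genes of the decoding centre and mRNA channel, with Rps26 without one. Of 17 genes mutated in Diamond-Blackfan anaemia, an inherited failure of red cell production, 13 contained a peak, and Rpl18, Rpl27, Rps24 and Rps26 did not. These shares of 75.0%, 85.7% and 76.5% lay near the 76.3% of all subunit genes.

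The limits of the gene record decided 2 genes. Rpl13a (chr7:52380928-52391787, minus strand) was overlapped by a peak of 7.23 kb at the start of its long transcripts, which covered 25.2% of the 10.9 kb record and also overlapped Aldh16a1 and Flt3l, and 0 peaks overlapped its lead transcript of 3.19 kb. The study used the Rpl13a promoter region as a control and reported robust raw DRIP-seq signal there. The list analysed here holds peaks and no signal. In Rpl24 (chr16:55966388-56009026), whose record is 42.6 kb, peaks of 2.18 and 0.795 kb lay 6997 and 25146 bp from the start, beyond the end of the lead transcript of 5.16 kb. On lead transcripts alone, 56 of the 76 subunit genes contained a peak.

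The 18 subunit genes without a peak included Rpl7a, Rpl10, Rpl14, Rpl18, Rpl27, Rpl31, Rpl36, Rpl36a, Rpl37a, Rpl39, Rps3a, Rps4x, Rps12, Rps15, Rps24, Rps26 and Rps27a. Some had a peak next to them. The nearest peak lay 18 bp past the end of Rpl14, 275 bp past the end of Rps24 and 50 bp upstream of the start of Rps12, and that of Rpl37a was 1.77 kb past its end. For 11 of the 18 the nearest peak was over 10 kb away, with the longest distance, 144 kb, at Rps27a, which encodes a fusion of ubiquitin and a ribosomal protein. The 4 subunit genes on the X chromosome, Rpl10, Rpl36a, Rpl39 and Rps4x, contained no peak, and 16.4% of the 932 protein-coding genes on X contained one. On autosomes, 58 of 72 subunit genes (80.6%) contained a peak. The labels do not give the sex of the animals.

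Medians of sequence composition were close in subunit genes with and without a peak. The GC content within 500 bp of the lead start had a median of 57.3% in the 58 genes with a peak (47.0 to 64.2%) and 56.3% in the 18 without (49.6 to 64.2%), compared to 55.0% over all protein-coding genes and 45.9% in the genes with a -ps symbol. All 58 genes with a peak are autosomal, and the 14 autosomal genes without one had a median of 58.2%. GC skew was taken as G minus C over G plus C, read in the direction of transcription, and its median over the first 1 kb was 0.094 with and 0.089 without a peak, compared to 0.039 over all protein-coding genes. Lead transcripts had a median length of 3.23 kb with and 2.55 kb without a peak. Ranges overlapped for each of these measures. A snoRNA gene lay inside 30 subunit genes, and 24 of these 30 and 34 of the 46 others contained a peak. Of the 58 snoRNA genes inside subunit genes, 31 lay wholly in a peak, a share near the 54.9% of intronic bases of the subunit lead transcripts that peaks covered. Of all 1552 annotated snoRNA genes, these 58 included, 118 overlapped a peak.

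Because R-loops are known to be favoured where RNA from the transcribed strand is rich in G, the 60 bases in which G most outnumbers C were sought in the introns of each lead transcript. The following stretches, taken inside the peak where there was one, are among those with the largest excess among genes with a peak (Rpl5, chr5:108331228-108331287; Rps10, chr17:27768303-27768362, minus strand) and among genes without one (Rps3a, chr3:85946327-85946386, minus strand; Rpl31, chr1:39425282-39425341). They are shown 5′ to 3′ on the coding strand with G in capitals:
Rpl5: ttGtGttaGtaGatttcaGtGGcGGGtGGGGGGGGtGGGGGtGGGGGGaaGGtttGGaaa
Rps10: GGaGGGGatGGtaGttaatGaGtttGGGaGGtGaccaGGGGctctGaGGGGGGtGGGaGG
Rps3a: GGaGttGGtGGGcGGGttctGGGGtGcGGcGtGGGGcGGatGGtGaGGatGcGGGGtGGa
Rpl31: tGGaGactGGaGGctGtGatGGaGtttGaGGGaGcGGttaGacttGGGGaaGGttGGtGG

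The stretch of Rpl5 holds 33 G and 2 C and lies 1707 bp from the start, and that of Rps3a holds 37 G and 6 C and lies 238 bp from it, so that the excess was 31 bases in both the gene with and the gene without a peak. With all introns of the lead transcript searched in every gene, inside and outside peaks, the median excess was 22.0 in the 56 genes with a peak in the lead transcript and 19.5 in the 20 without, and both groups reached 31. Stretches this rich in G were found in genes of either kind.

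Promoters were read from a RefSeq table of build GRCm38.p6, which held 55 of the 76 subunit genes. Motifs were searched on both strands over 300 bases around each listed start, and a gene counted when any of its listed promoters held the motif. CGGAAG, which holds the core of sites bound by ETS family factors, was present in 38 of the 55 genes (69.1%), compared to 18.8% of the 27025 genes in the table. It was present in 29 of the 41 genes with a peak and in 9 of the 14 without. The motif CTTTCC was present in 24 of the 41 and in 4 of the 14, and in 29.3% of all genes, and TATAAA in 10.9% of the 55 and 15.7% of all genes. The 80 bases before the start of 4 genes whose start peak contained them are shown 5′ to 3′ on the coding strand, placed on mm9 by exact match. CGGAAG or its reverse complement is in capitals. Only promoters holding it in these bases were taken, so its presence in all 4 follows from the choice. The start peaks measured 6.91, 4.74, 3.83 and 1.28 kb (Rpl37, chr15:5066533-5066612; Rpsa, chr9:120036804-120036883; Rpl34, chr3:130433317-130433396, minus strand; Rps25, chr9:44215717-44215796):
Rpl37: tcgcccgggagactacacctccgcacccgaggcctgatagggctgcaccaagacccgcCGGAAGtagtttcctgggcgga
Rpsa: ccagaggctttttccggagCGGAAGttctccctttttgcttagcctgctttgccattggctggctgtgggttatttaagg
Rpl34: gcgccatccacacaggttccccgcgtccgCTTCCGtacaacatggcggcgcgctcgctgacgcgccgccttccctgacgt
Rps25: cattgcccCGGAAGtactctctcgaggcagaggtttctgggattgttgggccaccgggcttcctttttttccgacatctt

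The genes with a -ps symbol carry nearly the coding sequence of their parents and none of their introns. Each of the 55 was compared without gaps with the gene its symbol names, of which there were 31, and the median identity was 97.7% (63.0 to 100%), with at least 95% in 39. Parents of 42 of the 55 contained a peak, and the median distance of the 55 genes to the nearest peak was 57.8 kb. Coding bases 91 to 150 of Rpl21 (chr5:147644466-147648608), covered by a peak over 92.2%, and the same bases of copies without a peak (Rpl21-ps10, chr3:38006330-38006877, minus strand; Rpl21-ps11, chr3:96470438-96470905, minus strand; Rpl21-ps13, chr7:146905298-146905780) show how alike they are, with differences from Rpl21 in capitals:
Rpl21: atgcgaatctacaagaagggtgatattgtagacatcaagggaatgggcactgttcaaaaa
Rpl21-ps10: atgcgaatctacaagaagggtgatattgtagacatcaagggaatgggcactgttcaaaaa
Rpl21-ps11: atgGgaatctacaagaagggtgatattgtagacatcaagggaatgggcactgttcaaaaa
Rpl21-ps13: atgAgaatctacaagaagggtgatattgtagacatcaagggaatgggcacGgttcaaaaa

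Sequence of this kind can be read from several places, and the sources used here do not state how reads with several matches were treated in peak calling, although the methods name uniquely mapped reads for the signal tracks. Each run of 31 bases was therefore looked up in the whole mm9 sequence. In the subunit genes, 51.4% of exonic and 3.68% of intronic runs of 31 bases also occurred elsewhere, and in the genes with a -ps symbol 71.1% did. Peaks covered 48.3% of the exonic and 54.9% of the intronic bases of the subunit lead transcripts. The median share of repeated exonic runs was 63.0% in subunit genes with a peak and 79.8% in those without, within ranges of 2.24 to 100% and 15.8 to 97.3%. The part of repeated sequence in the absence of peaks was not tested.

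**Figure D4:**
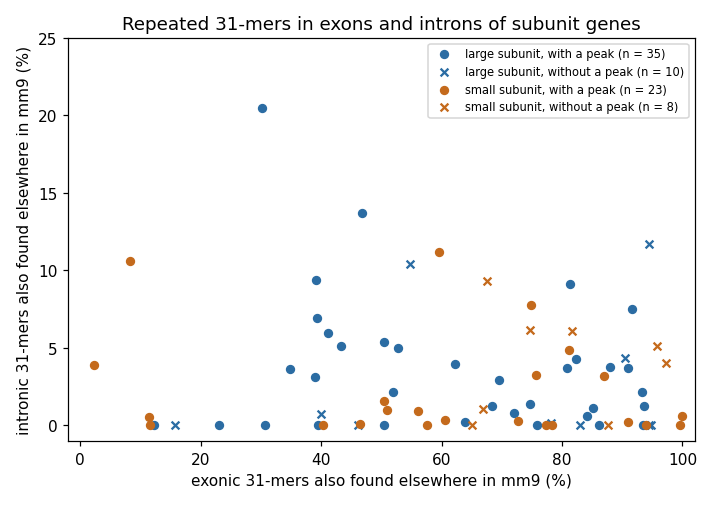
Share of runs of 31 bases that also occur elsewhere in mm9, in exons (horizontal axis, %) and introns (vertical axis, %) of each of the 76 subunit genes, with circles for genes with a peak and crosses for genes without. Exonic shares spread from 2.24 to 100%, while intronic shares stay at or below 20.5%, and the circles and crosses overlap.

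Of the 8 paralogs, 3 contained a peak (37.5%), a share near the 39.6% of all protein-coding genes. Rpl36al (chr12:70283718-70285070, minus strand) lay wholly inside a peak of 3.06 kb, Rpl22l1 (chr3:28704358-28706274) had a peak of 2.35 kb over its start and 34.4% of its length, and Rpl7l1 (chr17:46910856-46919605, minus strand) had a peak of 6.27 kb over its end and 51.5%. Rpl3l, the form of Rpl3 in striated muscle, Rpl10l and Rpl39l, which are expressed mainly in testis, Rps27l and Rps4y2 contained none, at distances from 4.85 kb in Rpl3l to 626 kb in Rpl10l. Ribosomal proteins with other names were outside the rule. Among these, Fau (chr19:6057893-6059516) had a peak of 1.72 kb over its start, and Gnb2l1 (chr11:48613834-48619936), now called Rack1, a peak of 4.05 kb over its end.

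Peak edges were set beside restriction sites, and the share of arbitrary positions near a site was not determined. Of the 136 edges of the 68 peaks over subunit genes, 45.6% lay within 100 bp of a site of the 5 enzymes, compared to 28.3% of the edges of the whole list. For peaks of at least 1 kb, these shares were 49.2% and 33.5%. The restriction fragment that held the lead start had a median length of 1.69 kb in subunit genes with and 1.45 kb in those without a peak. The part of the digest in where these peaks begin and end was not tested.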

How the data were processed

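Before deposit, the authors trimmed adapters (Trim Galore 0.6.6), mapped reads to NCBI37/mm9, discarded duplicates and used a peak caller based on a Hidden Markov Model. They deposited 1 list of peak positions in base pairs, with no other value. Labels and methods describe pooled DRIP reactions per biological replicate, and how replicates became 1 list is not given in the sources used here. Peaks (starts raised by 1) were set against GENCODE M1 gene records on the 19 autosomes, X and Y in Python 3.11.15 with numpy 2.4.6 and pysam 0.24.0. An overlap counted from 1 bp, and the overlap step was tested on simulated data. The members and gene lists were chosen with earlier results of these data known. Genes are named with or without a peak, those with a -ps symbol as a group, and some items are counted but not reported here by name. Values are given for genes wholly in a peak, with 2 or more peaks, with end or inner peaks, with the 5 widest peaks, for the stalk, 5S and paralog lists, Rpl13a and ribosomal proteins named otherwise. Alternatives changed peak width, merging, overlap, gene limits and members. No test was made, since 1 list holds no replicates.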

Additional observations from a re-analysis of the deposited data

How the results depend on the processing

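With 1 list and no replicates, error and depth limit every value, and no result has a test. No paired analysis was possible because 1 list of the DRIP sample was analysed and no result comes from a test. Alternatives for all 140 genes were set first, and those for the 76 subunit genes were chosen after seeing the data. Without peaks that also overlap another protein-coding gene, 41 genes contained a peak, 31 a peak at the start and 15 at the end, with 26.1% of bases covered by 46 peaks of median width 2.67 kb. In the subunit genes this left 40 with a peak, 30 at the start, 15 at the end and 30.8% of bases. The other counts stayed within 1.5 times the values given, from 47 to 69 of the 140 genes and 45 to 63 of the 76 with a peak. The covered share moved from 41.3% to 40.8% with peaks of at least 1 kb, 41.6% with peaks closer than 1 kb merged, 28.2% with 2 kb added to each side, 46.4% on lead transcripts, 46.1% in subunit genes and 42.6% on autosomes. In subunit genes it moved from 46.1% to 45.4%, 46.5%, 39.2%, 53.1% and 47.8% under the same settings on peaks, limits and chromosomes. The median width moved from 3.61 kb to 3.78 kb with peaks of at least 1 kb, 3.91 kb merged, 3.50 kb by midpoint, 3.72 kb with at least 500 bp inside the gene, 3.22 kb with 2 kb added and 3.66 kb on lead transcripts. Except where fewer peaks or genes enter by construction, the cause was not tested.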

Other observations

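Genes for factors that build ribosomes were examined beside those for the ribosome itself. Of 25 genes of ribosome assembly, 18 contained a peak (72.0%), with the start inside a peak in 9 (36.0%) and the end in 5, compared to 39.6%, 14.9% and 10.9% of all protein-coding genes. These genes had a median length of 12.9 kb and reached 70.3 kb, while the subunit genes had a median of 3.24 kb. Nop56 (chr2:130100166-130105049), a core protein of box C/D snoRNA particles, lay wholly inside a peak of 8.71 kb. Ubtf, which drives transcription of ribosomal RNA genes, was covered over 73.9% by a peak of 13.4 kb with its start inside. Ncl and Npm1, abundant nucleolar proteins, each had the start in a peak, and 36.2% of Ncl was covered. No peak was found in Nop58, Dkc1, Nob1, Ltv1, Rpf2, Polr1a and Eif6. Beside 8 subunit genes, another protein-coding gene started within 1 kb in the opposite direction, and 7 of these 8 contained a peak, 4 of them over the start, while of the 68 others 51 contained a peak and 41 had one over the start.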
